A study of Mus musculus with 9 samples.

Results

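Expression was examined for 10 genes of the costimulatory pathway that acts beside RANK during osteoclast formation. They comprise 3 receptors (Oscar, Trem2 and Siglec15), 2 adaptor proteins that carry an immunoreceptor tyrosine-based activation motif (ITAM; Tyrobp, which encodes DAP12, and Fcer1g, which encodes the Fc receptor gamma chain) and 5 signalling proteins (Syk, Plcg2, Btk, Tec and Blnk). The genes were taken by their symbols and known roles, with earlier results of these data known, and make up 10 of the 28379 genes of the table. All 10 passed the filter on low counts that left 17002 genes for testing, Oscar and Siglec15 only through their counts in the RANKL group.

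RNA sequencing was performed on bone marrow-derived macrophages (BMDMs) of 10-week-old C57BL/6J mice, which were kept for 48 h in medium with 20 ng/ml of M-CSF, the macrophage growth factor, in all 3 groups. The PBS group received PBS, a saline buffer, the RANKL group was given 100 ng/ml of RANKL, the cytokine that drives BMDMs towards osteoclasts, and the third group, labelled RANKL + Vit D + K and called the vitamin group below, was given RANKL at the same dose along with calcitriol (vitamin D, 1000 nM) and menaquinone-4 (MK4, a vitamin K, 20 μM by the labels). Each group had 3 libraries, 9 in all. The methods of the study give a higher MK4 dose and speak of pooled RNA without saying which cultures were pooled, so p-values measure the spread between these libraries, which may be technical. In such bulk samples fewer cells of a type and less RNA per cell cannot be told apart.

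Total counts ranged from 65915112 to 68229647 per library. Replicate 2 of the vitamin group stood farthest from its group (mean Pearson correlation of 0.976 with the other libraries of the group, on the log2 scale). Values without it are given where a call of the 10 genes changes without it, for the balance of the adaptors and for the related genes. They are not printed for every call that holds. The summed FPKM of 9 osteoclast markers was 23.6 to 31.8 in the PBS group, 487 to 1015 in the RANKL group and 70.4 to 100 in the vitamin group. All 9 macrophage markers had a mean above 1 FPKM in every group, but their sum differed. It was 26454 to 30688 in the PBS group, 16708 to 24341 in the RANKL group and 4540 to 11608 in the vitamin group. Lyz2 weighed most in it, with a mean of 19796 FPKM in the RANKL group. FPKM is a level scaled to transcript length and library size, so that it can be compared between genes. RANKL raised 8 of the 9 osteoclast markers, and 7 of the 9 fell and 1 rose when the vitamins were added. By the same test 1 of the macrophage markers fell with RANKL, while 6 fell and 1 rose with the vitamins. Of all tested genes, 2.35% were called higher and 1.26% lower with RANKL, and 16.4% higher and 17.2% lower with the vitamins. Leaving out replicate 2 of the vitamin group, 3 macrophage markers fell with RANKL (beside 5.23%) and 7 fell with the vitamins (beside 25.2%). The summed markers of mast cells and basophils, of NK and T cells, of dendritic cells and of stromal cells came to at most 0.796 FPKM in any library. Of these lists, only 3 of 8 mast cell and basophil markers and 2 of 7 NK and T cell markers were found in the table, so that these cell types were checked in part only, while all 6 dendritic and all 6 stromal markers were found.

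OSCAR, a receptor for collagen, signals through the Fc receptor gamma chain, while TREM2, a receptor for lipids and lipoproteins, and Siglec-15, a lectin that binds sialic acid, signal through DAP12. When a receptor is engaged, Src family kinases phosphorylate the ITAM of the adaptor, and the tyrosine kinase SYK docks there. SYK, with the scaffold BLNK and the Tec family kinases BTK and TEC, activates phospholipase C gamma 2 (PLCG2), which releases calcium from intracellular stores. The calcium signal drives calcineurin and NFATc1, the master transcription factor of the osteoclast, and Oscar is itself a known NFATc1 target.

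The sequence just upstream of Oscar and Trem2 is shown because these receptors differed in their response: Oscar was close to absent without RANKL, while Trem2 was highly expressed in all groups. Both are read 5′ to 3′ in the direction of the gene, from RefSeq on GRCm38.p6, and cover the 250 bases before the annotated start. Capitals mark matches on either strand to the letters GGAAA (the NFAT core), TGANTCA (AP-1), CACGTG (the E-box of MITF), GAGGAA (the PU.1 core) or AGGTCA (the core bound by the vitamin D receptor and other nuclear receptors). The NFAT and PU.1 letters share GGAA, so that their matches can run into each other.
Oscar, chr7:3616158-3616407, minus strand: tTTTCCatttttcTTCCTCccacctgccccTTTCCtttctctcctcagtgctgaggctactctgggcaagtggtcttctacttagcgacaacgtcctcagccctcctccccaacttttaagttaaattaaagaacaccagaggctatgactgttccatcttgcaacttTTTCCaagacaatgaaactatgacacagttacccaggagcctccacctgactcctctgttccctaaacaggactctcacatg
Trem2, chr17:48346151-48346400, plus strand: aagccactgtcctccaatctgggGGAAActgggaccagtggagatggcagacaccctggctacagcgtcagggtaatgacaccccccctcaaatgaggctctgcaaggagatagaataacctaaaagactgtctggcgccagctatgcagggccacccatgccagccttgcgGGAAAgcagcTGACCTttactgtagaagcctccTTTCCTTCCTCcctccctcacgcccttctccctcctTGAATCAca

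The window of Oscar held 3 NFAT cores, which begin 249, 220 and 82 bases before the start, and 1 PU.1 core, with no match to the other motifs. The window of Trem2 also held 3 NFAT cores and 1 PU.1 core, and in addition 1 AP-1 match beginning 9 bases before the start and 1 nuclear receptor core beginning 68 bases before it. These letters are common: of the windows before 32851 gene starts, 55.6% held an NFAT core, 23.3% a PU.1 core, 14% the nuclear receptor core, 6.75% AP-1 and 6.02% the E-box. Such matches describe the letters only and show no binding. Of the 10 genes, 8 have an entry in the RefSeq table, with none for Tyrobp and Siglec15.

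Oscar (chr7:3609813-3616157) rose from near 0 with RANKL and was near 0 again when the vitamins were present. Its level was 0, 0.0267 and 0.0385 FPKM in the PBS libraries, 4.42, 7.76 and 2.12 in the RANKL libraries and 0, 0.063 and 0 in the vitamin libraries. Every RANKL library lay above all 6 others, with replicate 2 highest and replicate 3 lowest. Oscar rose in the RANKL group against the PBS group (log2 fold change 7.42, SE 1.12, edgeR adjusted p = 0.0110). It fell in the vitamin group against the RANKL group (log2 fold change -7.62, SE 1.14, edgeR adjusted p = 0.00196).

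The counts behind the low Oscar values were 0, 4 and 6 in the PBS libraries and 0, 9 and 0 in the vitamin libraries, against 611, 1071 and 306 in the RANKL libraries. In the whole table a count of 4 was 2.22 times as frequent as the average of its neighbours 3 and 5, and a read pair may weigh more than 1 count. The Oscar total of the RANKL group was 198.8 times that of the PBS group (1988 against 10 counts) and 220.9 times that of the vitamin group (1988 against 9). After division of each library's count by 4 and rounding to whole numbers, the totals were 497 against 3 and 497 against 2, with 95% intervals of the ratio of 56.4 to 806 and of 68.4 to 2058, which overlap and cover counting error only. With each PBS or vitamin library set to 12 counts, above all their Oscar counts, the RANKL group was 49.3-fold and 49.0-fold higher. The rise with RANKL missed the threshold without PBS replicate 1 (edgeR adjusted p = 0.0518) or without PBS replicate 3 (edgeR adjusted p = 0.0541), while the fall with the vitamins held in all 18 alternatives. Without replicate 2 of the vitamin group, the only library of its group with an Oscar count, the fitted log2 fold change was -12.25 (edgeR adjusted p = 0.000346), which is no bound, as both remaining libraries were at 0.

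Siglec15 (chr18:78043614-78057395) showed the same order at a lower level. It had no count in any of the 6 PBS and vitamin libraries, and 46, 134 and 69 counts in the RANKL libraries, equal to 0.532, 1.55 and 0.758 FPKM. The RANKL group was at least 24.6-fold higher than the PBS group and at least 24.5-fold higher than the vitamin group, when each library at 0 is set to a floor of 3 counts. With the floor at 12 counts, to allow for the weight of a read pair, these bounds were 6.16-fold and 6.12-fold.

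Siglec15 rose with RANKL (edgeR adjusted p = 0.0245) and fell when the vitamins were added (edgeR adjusted p = 0.00513). With the replicate number as a block the rise was not called (edgeR adjusted p = 0.0711). It also missed the threshold without any single library of the PBS or RANKL groups (edgeR adjusted p from 0.0548 to 0.111), so that 7 of 17 alternatives lost it. The fall with the vitamins held in 17 of 17 alternatives.

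Trem2 (chr17:48346401-48354147) behaved differently from the other receptors, being expressed in all libraries and highest in the PBS group. It measured 63.6, 83.4 and 62.3 FPKM in the PBS libraries, 53.9, 52.5 and 48.0 in the RANKL libraries, and 32.3, 55.8 and 40.4 in the vitamin libraries. The PBS values lay above all others, and the RANKL and vitamin values overlapped. Against the PBS group, Trem2 fell in the vitamin group (log2 fold change -0.70, SE 0.159, edgeR adjusted p = 0.00815).

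Between the RANKL and PBS groups the log2 fold change of Trem2 was -0.56 (SE 0.158, 95% interval -0.92 to -0.20) and did not pass the test over all genes (edgeR adjusted p = 0.0919). It was called in 3 of 18 alternatives, namely without replicate 2 of the vitamin group (edgeR adjusted p = 0.0235), by DESeq2 (adjusted p = 0.0375) and in an edgeR fit of only the RANKL and PBS libraries (adjusted p = 0.0344). Between the vitamin and RANKL groups the log2 fold change was -0.14 (95% interval -0.49 to 0.22, edgeR adjusted p = 0.541).

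**Figure D1:**
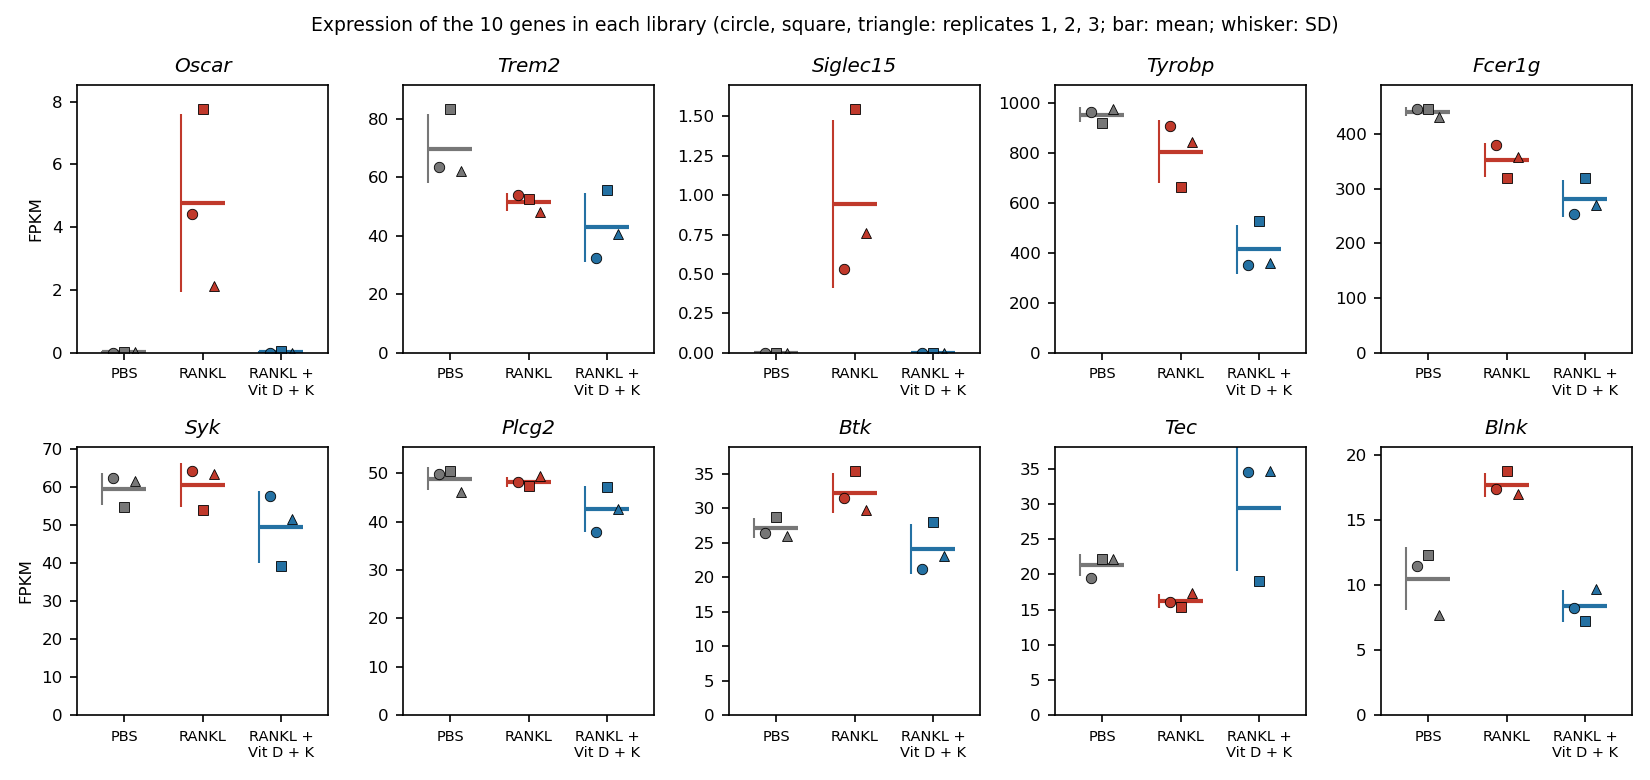
Level of each of the 10 genes in FPKM (vertical axis, linear, from 0) in the 3 treatment groups, with 1 point per library (circle, square and triangle for replicates 1, 2 and 3), the mean as a bar and the SD as a whisker. Oscar and Siglec15 rise visibly from the axis in the RANKL libraries only, where the lowest values are 2.12 and 0.532 FPKM, Tyrobp and Blnk lie below every RANKL library in the vitamin group, and Tec lies above them there.

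The adaptors were the most abundant of the 10 transcripts. Tyrobp (chr7:30413760-30417582) measured 963, 919 and 975 FPKM in the PBS libraries, 906, 662 and 842 in the RANKL libraries, and 352, 528 and 358 in the vitamin libraries. No value of a group overlapped with another group, and the vitamin group was well apart from both. Tyrobp fell in the vitamin group against the RANKL group (log2 fold change -0.84, SE 0.166, edgeR adjusted p = 0.00604) and against the PBS group (log2 fold change -1.20, SE 0.167, edgeR adjusted p = 0.000917), and both calls held in 18 of 18 alternatives. The difference between the RANKL and PBS groups was smaller and not called (log2 fold change -0.36, 95% interval -0.74 to 0.01, edgeR adjusted p = 0.278).

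Fcer1g (chr1:171229572-171234365), the partner of OSCAR, was lowest in the vitamin group as well. Its level was 446, 446 and 432 FPKM in the PBS libraries, 380, 319 and 358 in the RANKL libraries, and 254, 319 and 271 in the vitamin libraries. The PBS libraries lay above the rest, while the lowest RANKL library and the highest vitamin library were almost equal. Fcer1g fell in the vitamin group against the PBS group (log2 fold change -0.63, SE 0.112, edgeR adjusted p = 0.00260). The intermediate steps were not called, with a log2 fold change of -0.44 from PBS to RANKL (95% interval -0.70 to -0.19, edgeR adjusted p = 0.0646) and of -0.19 from RANKL to the vitamin group (95% interval -0.44 to 0.06, edgeR adjusted p = 0.226). The first of these was called in 3 of 18 alternatives, 1 of them without replicate 2 of the vitamin group (edgeR adjusted p = 0.0253).

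The balance between the adaptors was computed after their values had been seen. There were 2.16 ± 0.0979 (SD, n = 3) Tyrobp FPKM per Fcer1g FPKM in the PBS group, 2.27 ± 0.172 in the RANKL group and 1.45 ± 0.175 in the vitamin group. The sum of both adaptors was 1393 ± 24.4 FPKM in the PBS group, 1155 ± 157 in the RANKL group and 694 ± 133 in the vitamin group. Without replicate 2 of the vitamin group its means were 1.35 for the ratio and 618 FPKM for the sum (n = 2). The 3 vitamin libraries lay below the 3 RANKL libraries on both measures, with the smallest p that an exact two-sided permutation test of 3 against 3 can give (p = 0.1). The Trem2 level, as a percentage of the Tyrobp level, was 7.35 ± 1.49 in the PBS group, 6.53 ± 1.22 in the RANKL group and 10.3 ± 1.08 in the vitamin group. Within the 3 pairs of same-numbered PBS and RANKL libraries, this percentage and the sum were lower with RANKL in 3 of 3 pairs and the ratio was higher in 3 of 3, each at the smallest p that an exact two-sided paired permutation test of 3 pairs can give (p = 0.25).

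**Figure D2:**
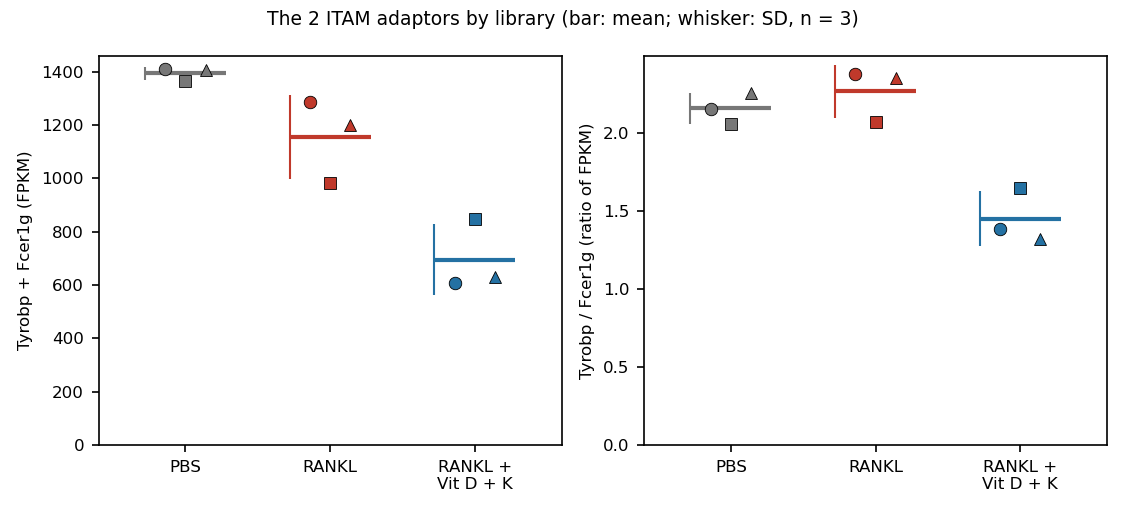
Sum of Tyrobp and Fcer1g (left, FPKM) and their ratio (right, no unit) in each library of the 3 groups, with the mean as a bar and the SD as a whisker (n = 3). The 3 vitamin libraries have ratios of 1.32 to 1.65, below the 6 other libraries, which range from 2.06 to 2.38.

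Among the signalling proteins, Syk and Plcg2 showed no called difference in any comparison. Syk (chr13:52583173-52648792), the kinase that docks on the ITAM, measured 62.4, 54.8 and 61.6 FPKM in the PBS libraries, 64.3, 54.0 and 63.6 in the RANKL libraries, and 57.6, 39.2 and 51.7 in the vitamin libraries. All groups overlapped, and the lowest value was that of the vitamin library that stands apart. The log2 fold change of Syk was -0.10 between RANKL and PBS (95% interval -0.54 to 0.35) and -0.13 between the vitamin and RANKL groups (95% interval -0.58 to 0.31), with a sign that flipped in some alternatives.

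Plcg2 (chr8:117498291-117635142), the phospholipase at the end of the cascade, measured 50.0, 50.5 and 46.1 FPKM in the PBS libraries, 48.2, 47.3 and 49.4 in the RANKL libraries, and 37.9, 47.2 and 42.7 in the vitamin libraries. Its vitamin values lay just below the RANKL values in FPKM, yet the log2 fold change scaled by TMM factors was -0.04 (95% interval -0.25 to 0.17, edgeR adjusted p = 0.777). FPKM carries no such factor. The median of all genes between these groups was -0.04 with TMM and -0.16 on log2(FPKM + 0.1), and 48.8% of calls were higher with TMM against 35.6% with limma on log2(FPKM + 0.1).

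Btk and Tec, related kinases that act at the same step, moved in opposite directions with the vitamins. Btk (chrX:134542336-134583140) measured 26.5, 28.8 and 26.1 FPKM in the PBS libraries, 31.5, 35.4 and 29.8 in the RANKL libraries, and 21.2, 28.1 and 23.0 in the vitamin libraries. The RANKL libraries lay above all others. Btk fell with the vitamins against RANKL by a small margin (log2 fold change -0.28, SE 0.0938, edgeR adjusted p = 0.0475), and the call was lost in 10 of 18 alternatives, among them every fit without 1 library of the PBS or RANKL groups and without replicates 1 or 3 of the vitamin group (edgeR adjusted p from 0.0827 to 0.153). Against PBS, neither RANKL (log2 fold change 0.12, 95% interval -0.09 to 0.33) nor RANKL with vitamins (log2 fold change -0.16, 95% interval -0.37 to 0.06) gave a call.

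Tec (chr5:72755716-72868483) was the single gene of the 10 that rose with the vitamins. Its level was 19.5, 22.2 and 22.3 FPKM in the PBS libraries, 16.1, 15.3 and 17.4 in the RANKL libraries, and 34.5, 19.1 and 34.7 in the vitamin libraries. The vitamin libraries all exceeded the RANKL libraries, although replicate 2 was close to them and below all PBS libraries. Tec rose in the vitamin group against the RANKL group (log2 fold change 1.03, SE 0.251, edgeR adjusted p = 0.0140), and without replicate 2 of the vitamin group the log2 fold change was 1.31 (edgeR adjusted p = 2.93e-05). The call was lost without RANKL replicate 1 (edgeR adjusted p = 0.0509) and without vitamin replicate 3 (edgeR adjusted p = 0.0524).

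From PBS to RANKL the log2 fold change of Tec was -0.51 (SE 0.249, edgeR adjusted p = 0.318), and from PBS to the vitamin group it was 0.51 (SE 0.249, edgeR adjusted p = 0.127). Neither passed the test, but both did without replicate 2 of the vitamin group (edgeR adjusted p = 0.0145 and 0.000349, the latter at a log2 fold change of 0.79).

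Blnk (chr19:40928927-40994535), the scaffold that brings the kinases and PLCG2 together, followed the order of Oscar with a much smaller range. It measured 11.5, 12.3 and 7.71 FPKM in the PBS libraries, 17.4, 18.8 and 17.0 in the RANKL libraries, and 8.25, 7.23 and 9.67 in the vitamin libraries. Every RANKL library lay above the 6 others. Blnk fell with the vitamins against RANKL (log2 fold change -0.92, SE 0.192, edgeR adjusted p = 0.00741), a call that held in 18 of 18 alternatives. From PBS to RANKL the log2 fold change was 0.63 (95% interval 0.20 to 1.06) and was not called (edgeR adjusted p = 0.111), but it was in 5 of 18 alternatives, 1 of them without replicate 2 of the vitamin group (edgeR adjusted p = 0.0335).

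Btk and Blnk are best known from B cells, so B cell markers were read beside them. Of 8 listed B cell markers 6 were found in the table and 1 was tested, so that this check is partial too. The tested marker, Cd79b, had a mean of 0.554 FPKM in the RANKL group. It was called lower with the vitamins against RANKL (log2 fold change -5.64, edgeR adjusted p = 0.00315), also without replicate 2 of the vitamin group (log2 fold change -8.80). The 6 summed to 0.380 to 0.514 FPKM in the PBS group, 0.423 to 0.795 in the RANKL group and 0 to 0.0485 in the vitamin group, with Ebf1 and Vpreb3 at 0 in all libraries, against 7.23 FPKM for the lowest Blnk value. Neutrophil markers moved with the vitamins too: the sum of 8 markers was 11.1 to 128 FPKM in the PBS group, 11.3 to 148 in the RANKL group and 0.551 to 1.72 in the vitamin group, where none of the 8 had a mean above 1 FPKM and 6 of the 7 tested were called lower than with RANKL (5 of 7 without replicate 2 of the vitamin group), beside 17.2% of all tested genes (25.2% without it). Tyrobp, Fcer1g and Syk are also expressed by neutrophils, and the part of neutrophils and of B cells in the differences was not tested.

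Read over the 10 genes, Oscar and Siglec15 were called higher with RANKL than with PBS (2 of 10) and none lower, against a background of 3.61% of all tested genes called, 2.35% higher and 1.26% lower. Both passed the filter on low counts only through the RANKL group, so that a call of them could only be higher. The 10 genes were also chosen with earlier results of these data known, so the count is a description only. The count of calls was 0 without PBS replicate 1 or without PBS replicate 3, and 1 without PBS replicate 2 or without any single RANKL library. With the replicate number as a block, the call of Siglec15 was lost and that of Oscar held. Without replicate 2 of the vitamin group 6 were called, with Blnk higher and Trem2, Fcer1g and Tec lower in addition, but calls over all tested genes grew as well, to 10.7% (5.46% higher and 5.23% lower). The RANKL and PBS values did not overlap in FPKM for 4 genes that were higher and 4 that were lower, against 22.4% and 12.9% of all tested genes (35.2% in both directions). The median log2 fold change of the 10 was -0.12, against -0.04 over all genes.

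With the vitamins, 6 of the 10 were called against the RANKL group, 5 lower (Oscar, Siglec15, Tyrobp, Btk and Blnk) and 1 higher (Tec), where 33.7% of all tested genes were called, 17.2% lower and 16.4% higher. For Oscar and Siglec15, which passed the filter only through the RANKL group, a call could only be lower. The same genes were called without replicate 2 of the vitamin group, beside 46.4% of all tested genes (21.2% higher and 25.2% lower). In FPKM the groups did not overlap for 7 genes that were lower and 1 that was higher, against 29.2% and 17% of all tested genes (46.2% in both directions). The median log2 fold change of the 10 was -0.23, against -0.04 over all genes. Both comparisons use the same RANKL libraries, so that a high RANKL value enters a rise in the first and a fall in the second.

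Against the PBS group, 3 of the 10 (Trem2, Tyrobp and Fcer1g) were called lower with RANKL and the vitamins and none higher, where 40.8% of all tested genes were called, 21% lower and 19.8% higher. For the same 3 genes, and for no other of the 10, the FPKM values of these groups did not overlap, against 52.5% of all tested genes, 27.7% lower and 24.8% higher. No fold is given for Oscar and Siglec15 here, as both groups were at or under the floor of 12 counts. The other 5 genes had log2 fold changes from -0.29 (Blnk) to 0.51 (Tec) and were not called. Oscar had no more than 9 counts in any library of either group, while the transcripts of TREM2 and of both adaptors were below their PBS levels.

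**Figure D3:**
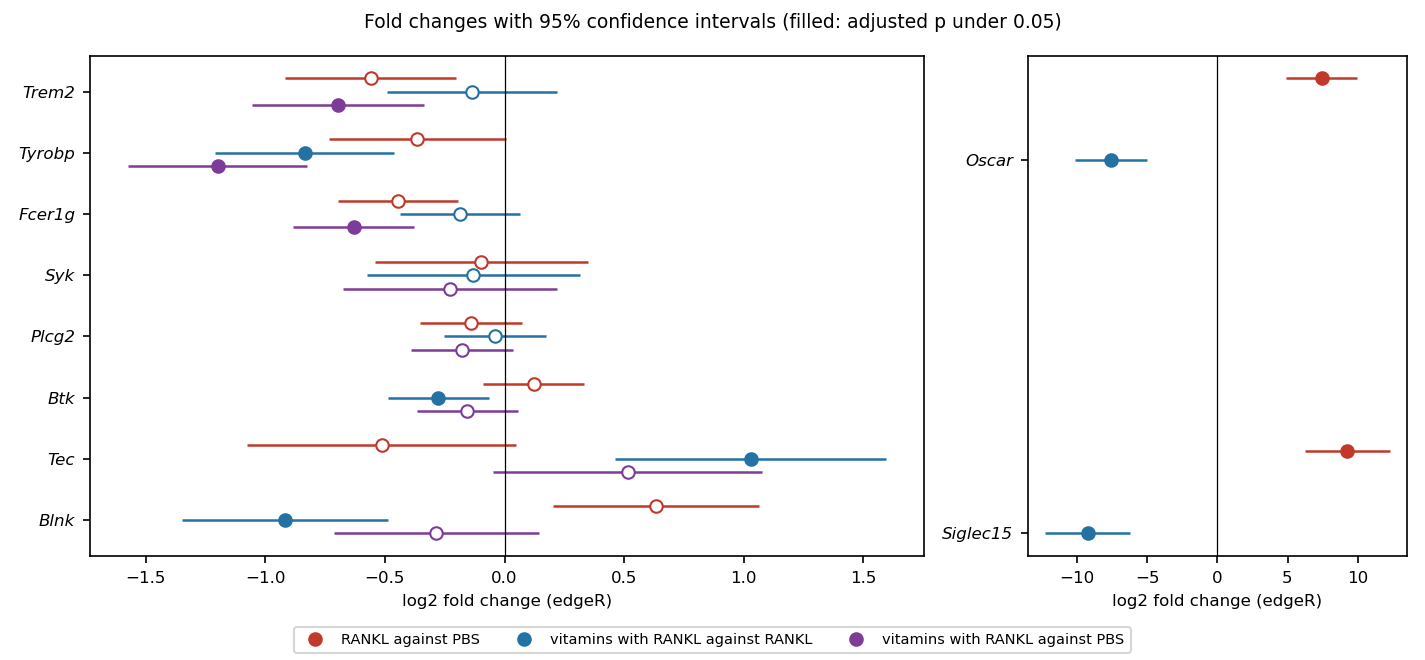
Log2 fold change of each gene (horizontal axis) with its 95% confidence interval from edgeR, filled where the adjusted p is under 0.05, for RANKL against PBS (red), RANKL + Vit D + K against RANKL (blue) and RANKL + Vit D + K against PBS (purple). Oscar and Siglec15 are drawn on a wider scale, the value of Siglec15 is fitted against libraries at 0 and is no bound, and Tyrobp, Btk and Blnk are filled on the left and Tec on the right of 0 for the vitamins against RANKL.

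Ordered by level, the transcripts kept a similar rank in each group. In the PBS group the order of mean FPKM was Tyrobp, Fcer1g, Trem2, Syk, Plcg2, Btk, Tec, Blnk, Oscar and Siglec15, and the library values of neighbours overlapped for Trem2 and Syk and for Oscar and Siglec15. In the RANKL group Syk stood above Trem2 and Blnk above Tec, with overlap between Trem2 and Plcg2 and between Blnk and Tec. In the vitamin group Tec stood above Btk, with overlap between these, also among Syk, Trem2 and Plcg2, and between Oscar and Siglec15. In the RANKL group the mean of Tyrobp exceeded that of 99.9% of genes with a mean above 0, Oscar exceeded 70.5% and Siglec15 exceeded 52.1%. Among the RANKL libraries, Oscar came to 0.594 to 2.43% of the Fcer1g level.

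The 5 genes whose log2(FPKM + 0.1) was most like that of Oscar over the 9 libraries were Ocstamp (r = 0.996), Scin, Cyp2s1, Mycl and Mst1r. They were chosen by Pearson correlation among 11843 tested genes with a mean of at least 1 FPKM in at least 1 group. All 5 had a mean of 2.32 to 3.65 FPKM in the RANKL group and of at most 0.0403 FPKM in the others, a pattern that this choice favours. Those most like Siglec15 were Efna2 (r = 0.995), Tdgf1-ps1, Scin, Cyp2s1 and Psmd10, and those most like Trem2 were Ski (r = 0.984), Blmh, Treml2, 2900026A02Rik and Bmyc. By Spearman correlation 1 of the 5 was shared for Oscar and 2 for each of the others. Among the 10 genes themselves, the correlation over the 9 libraries was 0.98 between Oscar and Siglec15, 0.95 between Tyrobp and Fcer1g and -0.93 between Btk and Tec. The 9 libraries fall into 3 treatment groups, which these values share.

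Other receptors that pair with ITAM adaptors changed in both directions. Of 26 listed, 22 were tested, and RANKL raised Lilra6 (log2 fold change 2.02, SE 0.187) and Pira2 (log2 fold change 1.50, SE 0.177), which encode activating immunoglobulin-like receptors of the Fc receptor gamma chain, and lowered the Fc gamma receptor Fcgr3 (log2 fold change -1.43, SE 0.177) and the C-type lectin Clec4d (log2 fold change -1.11, SE 0.193). Lilra6 and Pira2 belong to a family of near-identical genes, so their counts are uncertain. With the vitamins against RANKL, 3 rose and 10 fell, beside 16.4% of all tested genes called higher and 17.2% lower. Clec4e, which encodes the glycolipid receptor Mincle, rose from 12.3 ± 0.671 to 80.3 ± 40.7 FPKM and Plxna1, the semaphorin receptor that associates with TREM2 and DAP12, rose from 59.1 ± 0.802 to 249 ± 117 FPKM, beside Clec5a, a DAP12 partner (log2 fold change 0.93, SE 0.238). The largest falls were those of Lilra5 (log2 fold change -3.48, at 0.380 FPKM or less), Fcgr1 (log2 fold change -2.87) and Fcgr4 (log2 fold change -1.93), which encode receptors that use the Fc receptor gamma chain.

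Among 11 ligands and sheddases, 9 were tested. Apoe, which encodes an apolipoprotein that TREM2 binds, fell from 2971 ± 791 FPKM in the PBS group to 604 ± 340 in the RANKL group (log2 fold change -2.40, edgeR adjusted p = 0.0269) and to 73.0 ± 5.76 with the vitamins (log2 fold change -2.93 against RANKL, edgeR adjusted p = 0.00287). Lgals3, which encodes galectin-3, rose with the vitamins (log2 fold change 0.77). Col1a1, a collagen that OSCAR can bind, and Sema6d, a plexin ligand, fell with them at means of no more than 0.250 FPKM. The sheddases Adam10 and Adam17 were not called in either comparison.

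Of 28 proximal kinases and adaptors, 4 rose with RANKL and none fell, beside 2.35% and 1.26% of all tested genes. Src, the kinase that osteoclasts need to resorb bone, rose from 0.546 ± 0.0885 to 14.4 ± 4.10 FPKM (log2 fold change 4.57, edgeR adjusted p = 0.00013), and Fgr, another Src family kinase, rose from 4.07 ± 1.32 to 29.3 ± 5.41 FPKM (log2 fold change 2.71, edgeR adjusted p = 0.0103). Malt1, of the CARD9 and BCL10 complex, rose by a log2 fold change of 1.24, and Nck1, an SH2 adaptor named here outside the rule on sizes to complete the count, by 0.59. With the vitamins 5 rose and 8 fell, beside 16.4% and 17.2% of all tested genes. Src fell to 2.64 ± 0.516 FPKM (log2 fold change -2.27), Fgr to 6.39 ± 4.41 FPKM (log2 fold change -2.09) and the phosphoinositide kinase Pik3cd from 33.9 ± 1.71 to 14.1 ± 7.83 FPKM. In contrast the Src family kinase Fyn rose from 5.68 ± 1.47 to 20.8 ± 3.52 FPKM (log2 fold change 2.04), and the adaptors Lat2 (log2 fold change 1.72) and Gab2 (log2 fold change 1.63) rose as well.

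In the calcium branch 14 of 15 genes were tested. Nfatc1 rose with RANKL from 9.46 ± 0.401 to 18.2 ± 3.53 FPKM (log2 fold change 0.81, edgeR adjusted p = 0.0121), the only call there, and fell with the vitamins to 6.77 ± 0.609 FPKM (log2 fold change -1.27, edgeR adjusted p = 0.00044). Nfatc2 (log2 fold change -1.73) and the calcium channel subunit Orai1 (log2 fold change -0.77) fell too. Another 4 rose, namely the inositol trisphosphate receptor Itpr3 (log2 fold change 1.53), the calmodulin kinase Camk2d (log2 fold change 1.35) and the calcineurin subunits Ppp3cb (log2 fold change 0.57) and Ppp3r1 (log2 fold change 0.50, named to complete the count). These 4 called higher and 3 called lower with the vitamins stand beside 16.4% and 17.2% of all tested genes.

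Of 26 inhibitory receptors and phosphatases, 25 were tested. RANKL raised Clec12a, an inhibitory lectin (log2 fold change 0.89), and lowered the adaptor Pag1 (log2 fold change -0.81) and the inhibitory receptor Lilrb4a (log2 fold change -0.56). With the vitamins 2 rose: Cblb, a ubiquitin ligase that restrains receptor signalling, from 3.46 ± 0.0958 to 23.1 ± 10.0 FPKM (log2 fold change 2.92), and Lilrb4a from 167 ± 2.59 to 366 ± 25.3 FPKM (log2 fold change 1.28). Another 9 fell, led by Siglece, an inhibitory sialic acid receptor (log2 fold change -3.03), the phosphatase Ptprj (log2 fold change -1.72) and Clec4a2 (log2 fold change -1.45). Of 14 close paralogs of the 10 genes, 10 were tested, none was called with RANKL, and Hcst, which encodes DAP10 (log2 fold change -0.75), and Plcg1 (log2 fold change -0.42) fell with the vitamins.

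Without replicate 2 of the vitamin group, no related gene named above changed direction in the vitamin against RANKL comparison. There the call of Hcst was lost (edgeR adjusted p = 0.0546), Adam17 (log2 fold change -0.47, edgeR adjusted p = 0.0135) and Clec12a (log2 fold change -0.71, edgeR adjusted p = 0.0081) were called lower, and Pag1 was called higher (log2 fold change 0.48, edgeR adjusted p = 0.0173). Calls over all tested genes grew to 46.4% (21.2% higher and 25.2% lower), beside which 8 genes of the calcium branch were called higher and 4 lower, and 6 and 11 of the inhibitory receptors and phosphatases. The falls of Fgr (log2 fold change -2.70), Ptprj (log2 fold change -2.31) and Siglece (log2 fold change -3.63) were then larger by more than 1.5-fold, and Col1a1 was at 0 in both remaining libraries. This library also enters the shared estimate of spread for RANKL against PBS, where 10.7% of all tested genes were called without it. Of the lists, 2 partner receptors were then called higher and 5 lower, 5 and 3 of the kinases and adaptors, 1 and 1 of the calcium genes, 1 and 5 of the inhibitory genes, and 0 and 1 both of the ligands and sheddases and of the paralogs.

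**Figure D4:**
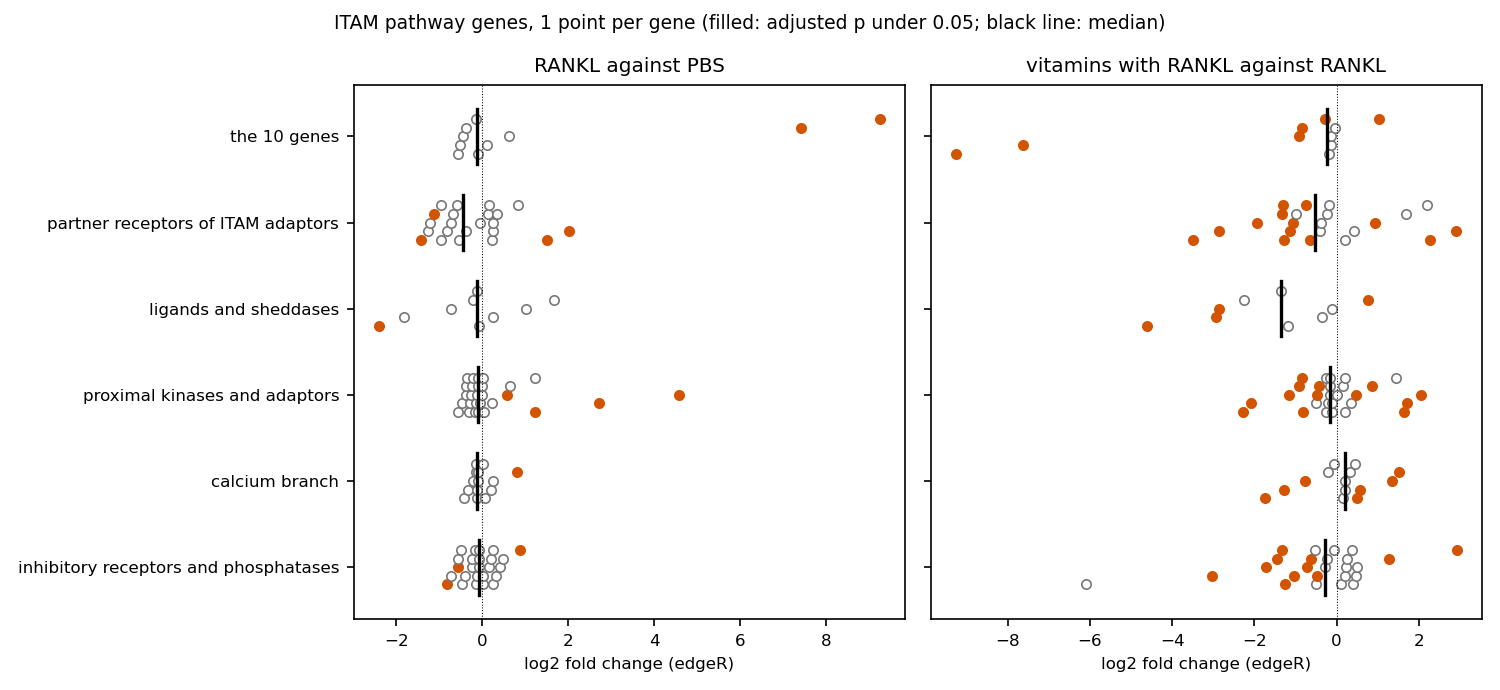
Log2 fold change (horizontal axis) of the 10 genes and of 5 lists of related genes, with 1 point per gene, filled where the edgeR adjusted p is under 0.05, and the median as a black line, for RANKL against PBS (left) and RANKL + Vit D + K against RANKL (right). More points are filled on the right, on both sides of 0, as for all tested genes (33.7% called, against 3.61% on the left).

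The medians of the lists give their position beside all genes, whose median was -0.04 in both comparisons. From PBS to RANKL they were -0.45 for the partner receptors, -0.12 for the ligands and sheddases, -0.10 for the proximal kinases and adaptors, -0.11 for the calcium branch, -0.08 for the inhibitory genes and -0.39 for the paralogs. From RANKL to the vitamin group they were -0.53, -1.36, -0.16, 0.20, -0.30 and -0.17 in the same order. The count of calls in the lists from RANKL to the vitamin group was 13 of 22, 4 of 9, 13 of 28, 7 of 14, 11 of 25 and 2 of 10, beside the background of 33.7%. Without replicate 2 of the vitamin group these medians were -0.69, -1.25, -0.08, 0.25, -0.48 and -0.59, against -0.11 over all genes, and the counts were 14, 5, 17, 12, 17 and 3, beside 46.4%.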

How the data were processed

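RNA of 9 BMDM libraries was selected for poly(A) and sequenced as paired ends. The authors deposited a table of whole-number counts per gene, not normalized, and of FPKM values, which the authors scaled to gene length and library size. Per the submitters' processing notes, cutadapt 1.9, HISAT2 2.0.4, StringTie 1.3.4d and edgeR were used. The notes list the build hg38, but the genes are mouse genes, and 90.46% of the 28294 gene IDs found in GENCODE M21 (GRCm38) had the same coordinates there. Strand use is not stated. No gene with exons shared with any of the 10 was found in that annotation.

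Counts were tested with edgeR 4.0.16 (R 4.3.3; filterByExpr, TMM factors, quasi-likelihood test, all 9 libraries in 1 model), with Benjamini-Hochberg adjustment over 17002 genes and a threshold of 0.05, after a check on simulated data. SE is the log2 fold change divided by the square root of F. Depth (65915112 to 68229647 counts) limits the low values of Oscar and Siglec15. The 10 genes and all lists were chosen with earlier results of these data known. Beyond the 10 genes, up to 3 genes per direction with the largest called change were named from each list, and the 5 genes best correlated with each receptor. Alternatives were DESeq2 1.42.0, RLE factors, other filters, limma 3.58.1 on log2(FPKM + 0.1) or log2(FPKM + 1), counts divided by 4, only the 2 groups compared, a replicate block, and each library left out. Same-numbered PBS and RANKL libraries deviated together (correlations of 0.345, 0.448 and 0.305), while libraries of unlike number were not compared. The numbers, which come from the labels, may thus pair these libraries. The main model holds no block for them, and the replicate block is given as an alternative.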

Additional observations from a re-analysis of the deposited data

How the results depend on the processing

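Genes called between RANKL and PBS numbered 614, against 1699 with DESeq2, 1736 in a fit of only the 2 groups compared, and 126 to 1903 when libraries were left out in turn. Of the 10 genes, 2 were called there, against 5 with DESeq2 (Trem2, Fcer1g and Blnk in addition), 6 with only these groups (Tec as well), 1 with a mean FPKM of at least 1 as filter (Siglec15 is not tested there), 1 with the replicate block, and 0 to 6 without single libraries. Between the vitamin and RANKL groups 5725 genes were called, and 3199 to 8259 without single libraries. Pairing correlations for these groups were 0.077, 0.151 and 0.216, and 0.0303, 0.0974 and 0.130 for the vitamin and PBS groups, so the numbers were not taken to pair them, and the block left 6 and 3 of the 10 called, as without it. Apart from the call of Siglec15 with RANKL, the block changed no call of the 10 genes. Values near 0 changed sign: the log2 fold change of Syk from PBS to RANKL was -0.10, but 0.022 by limma on log2(FPKM + 0.1), 0.021 on log2(FPKM + 1), and -0.16 to 0.013 without single libraries. Against RANKL the vitamin group gave Syk -0.31 to 0.065 (the latter without vitamin replicate 2) and Plcg2 -0.090 to 0.0017 (the latter without RANKL replicate 3) when libraries were left out in turn, and Plcg2 -0.19 by limma on log2(FPKM + 0.1). The RANKL to PBS ratio of Plcg2 was 0.989 in FPKM and 0.908 in CPM with TMM factors. On log2(FPKM + 1) the Oscar changes shrank to 2.37 and -2.37, the pseudocount being above its low levels. The cause of the other shifts was not tested. Between the vitamin and PBS groups the calls of Trem2, Tyrobp and Fcer1g held in all 18 alternatives.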

Other observations

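The genes around the pathway were also compared between the vitamin group and the PBS group, where 40.8% of all tested genes were called by edgeR. Of the 22 tested partner receptors of ITAM adaptors 6 were higher and 11 lower, with a median log2 fold change of -0.84. Of the 9 ligands and sheddases 1 was higher and 5 were lower, and Apoe was lower by the log2 fold change of -5.33 (edgeR adjusted p = 0.000292), at 73.0 ± 5.76 against 2971 ± 791 FPKM (SD, n = 3). The 28 proximal kinases and adaptors split into 8 higher and 10 lower, the 14 genes of the calcium branch into 6 and 4, the 25 inhibitory receptors and phosphatases into 2 and 10, and the 10 paralogs into 2 and 4.

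Of the 9 osteoclast markers, 5 were higher in the vitamin group than with PBS and 1 was lower, beside 19.8% and 21% of all tested genes. Acp5, which encodes tartrate-resistant acid phosphatase, was not among the called markers there (log2 fold change -0.32, 95% interval -1.62 to 0.97, edgeR adjusted p = 0.687), but without replicate 2 of the vitamin group it was called lower (log2 fold change -1.60, edgeR adjusted p = 0.00065). Csf1r, the receptor of M-CSF, measured 964 ± 117 FPKM with PBS, 544 ± 116 with RANKL and 183 ± 43.0 with RANKL and the vitamins, and was called lower at each step (edgeR adjusted p = 0.0484 and 0.0020). It was the only 1 of the 9 macrophage markers called lower with RANKL, and 3 were called without replicate 2 of the vitamin group. From RANKL to the vitamin group 6 of the 9 fell, and Cd68 rose (log2 fold change 0.53).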
